A study of Mus musculus with 6 samples.

Results

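The insulin-like growth factor (IGF) axis was taken as 10 genes of the count table, chosen by their gene names: the ligands *Igf1* and *Igf2*, the receptors *Igf1r* and *Igf2r*, and the binding proteins *Igfbp2*, *Igfbp3*, *Igfbp4*, *Igfbp5*, *Igfbp6* and *Igfbp7*. These were 10 of 54532 genes in the table, and all 10 passed edgeR's filter on low counts, with 57 as their lowest count in any library. Polyadenylated RNA of whole mouse cerebellum at postnatal day 1 was sequenced as 3 control and 3 mutant libraries. The controls were Tox3f/f littermates, and the mutants were Nestin-cre;Tox3f/f animals, so that every animal carried the floxed *Tox3* alleles and the mutants alone carried Cre. Nestin-Cre drives recombination across the nervous system rather than in one cerebellar cell type, and the transgene and the deletion cannot be told apart in this design. The comparison asks how transcript levels in the newborn cerebellum differ when *Tox3*, a transcriptional regulator, is removed from the nervous system.

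IGF-I and IGF-II are small secreted growth factors that signal through the receptor tyrosine kinase IGF1R and, from there, through insulin receptor substrates, PI3K and Akt. IGF2R, the cation-independent mannose 6-phosphate receptor, carries IGF-II to lysosomes instead of passing on a growth signal, and the binding proteins hold both ligands outside the cell and either withhold or deliver them. In the developing cerebellum, IGFs are known as survival and growth factors for granule neuron progenitors (GNPs), Purkinje cells make IGF-I, and the meninges, choroid plexus and vessels of the brain are known sources of IGF-II.

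The libraries held 15391854 to 17178478 counts on genes, and 3 counts corresponded to at most 0.196 CPM (counts scaled to a common library total). The targeted gene *Tox3* was counted at 63.0 to 64.4 CPM in the controls and at 55.3 to 63.2 CPM in the mutants (log2 fold change −0.11; edgeR's quasi-likelihood test, Benjamini-Hochberg adjusted p = 0.252). That count covers all exons of the gene and so does not check the labels, and each direction below compares the groups as they were labelled. *Atoh1*, the transcription factor that specifies GNPs, was counted at 30.9 to 32.6 CPM in the controls and at 0.249 to 0.577 CPM in the mutants. Animals of both sexes were used. Genes of the Y chromosome summed to 203 to 253 CPM in control 1, mutant 1 and mutant 3 and to at most 0.128 CPM in the other 3 libraries. A list of 8 GNP markers, which held *Atoh1*, summed to 1317 to 1435 CPM in the controls and to 520 to 571 CPM in the mutants. In these bulk samples, fewer cells of a type and less RNA per cell cannot be told apart.

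*Igf2* was the member that changed most, and it was 1.77-fold higher in the mutants. *Igf1* was 1.43-fold higher and *Igf1r* 1.24-fold lower, while no binding protein passed the call. A gene was called at an adjusted p under 0.01 together with a log2 fold change beyond 0.5. By that rule 1 of 10 members was called higher and 0 lower, beside 6.66% of 17505 tested genes called in either direction, 3.03% higher and 3.63% lower, and 1 gene among 10 is too few to read against that background. At an unadjusted p under 0.05, edgeR gave 5 members higher and 1 lower, where 18.2% of tested genes were higher and 19% lower. DESeq2 called 2 members higher and 0 lower, where it called 3.97% of the 15052 genes it gave an adjusted p higher and 4.22% lower. *Igf2* and *Igf1r* were the 2 members with an adjusted p under 0.01 at any fold, the first higher and the second lower, where 13.8% of tested genes had one (6.55% higher, 7.24% lower). Adding *Igf1* and *Igfbp2* gave 4 of 10 members under 0.05, where the share of tested genes was 25.1%. The 3 mutant libraries lay above all 3 controls in 5 members and below them in 2, and the groups overlapped in the other 3. Such separation was found upward in 20.4% and downward in 20.1% of tested genes. The median log2 fold change of the members was 0.17, with 7 higher and 3 lower, and that of all tested genes was −0.01.

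**Figure D1:**
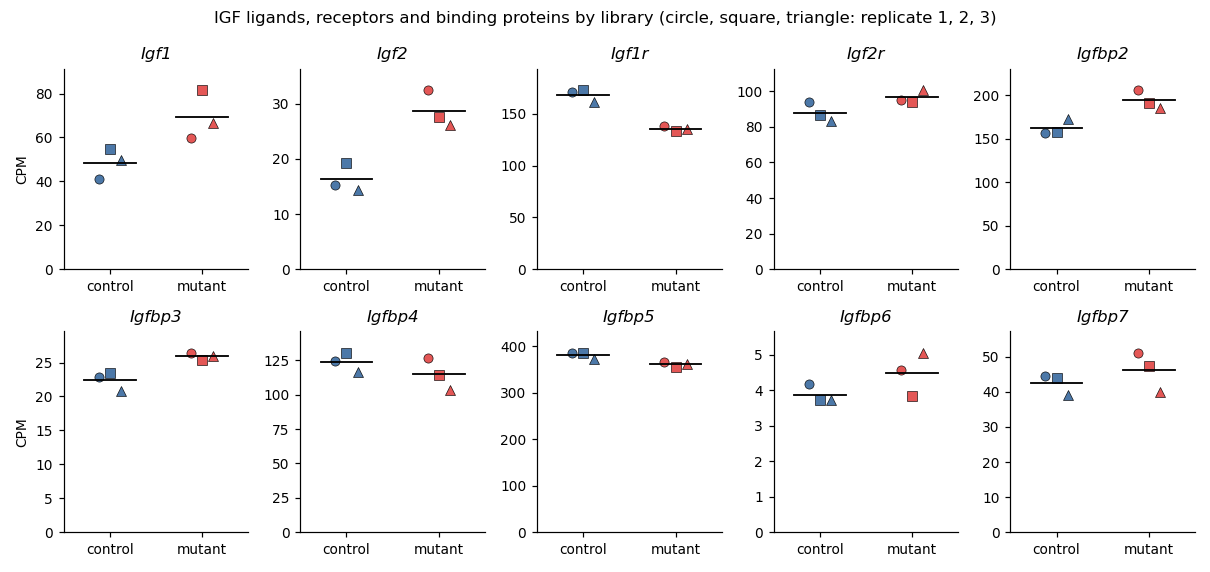
CPM of each member (y axis, from 0) in the 3 control (blue) and 3 mutant (red) libraries; symbols give the replicate number and black lines the group mean. The groups do not overlap for *Igf1*, *Igf2*, *Igf1r*, *Igf2r*, *Igfbp2*, *Igfbp3* and *Igfbp5*, and they overlap for *Igfbp4*, *Igfbp6* and *Igfbp7*.

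Promoter sequences were examined to place the ligand and the receptor that moved in opposite directions beside their upstream DNA. RefSeq gave 14 transcription starts for the 10 members on GRCm38.p6. The 250 bases before each start were searched on both strands for the GC box GGGCGG and for the E-boxes CAGCTG and CAGATG, the kind of site that basic helix-loop-helix factors such as Atoh1 bind. A GC box was present at 6 of the 14 starts and in 32.7% of all 32851 promoters of that length. An E-box was present at 2 of the 14, at *Igf1* (CAGCTG) and *Igfbp4* (CAGATG), and in 25.5% of all promoters. All 250 bases of the *Igf1* window lie in annotated exon sequence, whereas the *Igfbp4* window holds no exon base. *Igf2* has 4 starts, with a GC content of 47.6% to 68.8% where the median over all promoters was 52.4%. Only its most upstream and most downstream windows hold no exon base, and these are printed. The first has none of these motifs and the second has 2 GC boxes. The *Igf1r* window is printed for comparison. Each runs 5′ to 3′ on the gene's own strand and ends at the base before the start, with the GC boxes in capitals.
Igf2, most upstream start (GRCm38.p6, chr7:142666817-142667066, minus strand): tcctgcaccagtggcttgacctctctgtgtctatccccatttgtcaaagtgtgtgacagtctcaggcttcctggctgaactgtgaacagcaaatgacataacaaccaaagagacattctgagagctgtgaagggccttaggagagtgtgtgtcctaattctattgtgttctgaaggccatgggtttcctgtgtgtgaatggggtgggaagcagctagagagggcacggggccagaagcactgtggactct
Igf2, most downstream start (GRCm38.p6, chr7:142657497-142657746, minus strand): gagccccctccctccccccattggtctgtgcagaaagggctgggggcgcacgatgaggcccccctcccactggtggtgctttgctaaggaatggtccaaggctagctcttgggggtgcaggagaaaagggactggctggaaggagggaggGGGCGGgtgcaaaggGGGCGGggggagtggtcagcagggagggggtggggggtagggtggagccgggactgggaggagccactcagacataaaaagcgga
Igf1r (GRCm38.p6, chr7:67952007-67952256, plus strand): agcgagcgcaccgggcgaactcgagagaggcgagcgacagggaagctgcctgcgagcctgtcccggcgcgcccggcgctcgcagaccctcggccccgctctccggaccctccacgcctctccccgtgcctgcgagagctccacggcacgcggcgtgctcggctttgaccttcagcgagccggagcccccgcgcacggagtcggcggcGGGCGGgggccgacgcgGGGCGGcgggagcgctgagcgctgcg
The GC content of these windows was 50.8%, 66.0% and 77.6%. Counts were made per gene, so the libraries do not tell which of the *Igf2* starts was used.

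Of the ligands, *Igf2* (ENSMUSG00000048583, chromosome 7 of GRCm38 from 142650766 to 142666816, minus strand) was counted at 15.3, 19.2 and 14.3 CPM in controls 1 to 3 and at 32.5, 27.5 and 26.2 CPM in mutants 1 to 3. The lowest mutant library lay above the highest control. The means were 16.3 ± 2.58 and 28.7 ± 3.30 CPM (SD, n = 3 each). On the log2 scale the difference was 0.82 with a standard error (SE) of 0.13 (edgeR, adjusted p = 0.00134), and *Igf2* was the called member. Within the libraries with high Y-chromosome genes its mean was 1.92-fold higher in the mutants (1 control, 2 mutants), and within those with low Y-chromosome genes it was 1.64-fold higher (2 controls, 1 mutant). The call was kept with each library left out in turn, with log2 fold changes from 0.72 to 0.96. It was lost in limma on log2(FPKM + 1) with no filter on low values, at a log2 fold change of 0.65 and an adjusted p of 0.0246.

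The *Igf2* row shares sequence with other annotated genes, which bears on its level. The same-strand readthrough gene *Gm49394* covers 3596 of the 5723 exon bases of *Igf2* (62.8%), and it had 0 counts in all 6 libraries. The antisense gene *Igf2os* shares 98 bases. Its counts were 41, 32 and 39 in the controls and 57, 51 and 41 in the mutants, and its log2 fold change of 0.34 did not pass the test (adjusted p = 0.308, edgeR). How reads in shared exons were assigned is not stated, but reads counted for both *Igf2* and *Gm49394* would have appeared in the *Gm49394* row.

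The microRNA gene *Mir483* lies in *Igf2* on the same strand and shares no base with its exons. Its row held 0 counts in each control and 8, 3 and 5 counts in mutants 1 to 3, too few for the test. Both mature sequences of its hairpin (GRCm38.p6, chr7:142654924-142654996, minus strand) are printed from RefSeq because the row can be read only as sequence at this locus. Capitals mark the seed, bases 2 to 8, and the seeds of the arms differ.
mmu-miR-483-5p (chr7:142654968-142654989): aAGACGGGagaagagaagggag
mmu-miR-483-3p (chr7:142654932-142654952): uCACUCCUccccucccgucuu
The libraries were made from fragmented polyadenylated RNA, so these counts are of RNA at the hairpin locus and not of the mature microRNA.

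*Igf1* (ENSMUSG00000020053, chromosome 10 from 87858265 to 87937042, plus strand) was counted at 40.9, 54.6 and 49.6 CPM in the controls and at 59.8, 81.6 and 66.4 CPM in the mutants. The groups did not overlap, and in each of them the libraries with high Y-chromosome genes were the lower ones. The means were 48.3 ± 6.92 and 69.2 ± 11.2 CPM (SD, n = 3 each), a log2 difference of 0.52 with a standard error of 0.13 (edgeR, adjusted p = 0.0148), so *Igf1* was not called. Between libraries alike in Y-chromosome genes, it was 1.54-fold higher where these were high (1 control, 2 mutants) and 1.57-fold higher where they were low (2 controls, 1 mutant). With the Y-chromosome gene level as a covariate in edgeR, it was 0.63 on the log2 scale with a standard error of 0.07 (adjusted p = 4.77e-06), which passed the call. DESeq2 also called it, at 0.52 and an adjusted p of 0.000184. With each library left out in turn, *Igf1* was never called (edgeR, adjusted p from 0.0104 to 0.0466).

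*Igf1r* (ENSMUSG00000005533, chromosome 7 from 67952827 to 68233668, plus strand) encodes the signalling receptor for both ligands. Its level was 171, 173 and 161 CPM in the controls and 138, 134 and 135 CPM in the mutants. All 3 mutants lay below all 3 controls, and the spread within each group was small. The means were 169 ± 6.23 and 136 ± 2.05 CPM (SD, n = 3 each), a log2 difference of −0.31 with a standard error of 0.05 (edgeR, adjusted p = 0.00124). The fall passed the test at any fold but stayed short of the fold threshold of the call. It was −0.34 to −0.28 over 16 alternative fits, with an adjusted p under 0.01 in 13 of them and 0.0176 at most.

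*Igf2r* (ENSMUSG00000023830, chromosome 17 from 12682406 to 12769664, minus strand), the receptor that clears IGF-II, was counted at 93.7, 86.7 and 83.4 CPM in the controls and at 95.2, 93.8 and 101 CPM in the mutants. Control 1 and mutant 2 lay next to each other, and the groups just failed to overlap. The log2 difference of 0.14, with a standard error of 0.06, did not pass the test (edgeR, adjusted p = 0.128). Its antisense RNA *Airn* is known to silence the paternal copy of *Igf2r* in many tissues. *Airn* shares no exon base with *Igf2r* and had a log2 fold change of −0.23 (adjusted p = 0.426, edgeR).

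**Figure D2:**
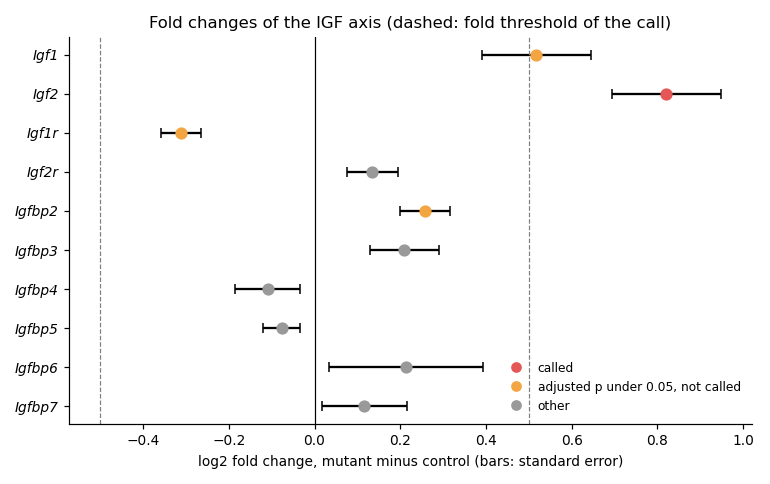
Fitted log2 fold change of each member, mutant minus control (x axis), with its standard error as a bar; dashed lines mark the fold threshold of 0.5. *Igf2* (0.82) is the called member, and *Igf1* (0.52), *Igfbp2* (0.26) and *Igf1r* (−0.31) had an adjusted p under 0.05 without being called.

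FPKM values, in which counts are divided by gene length and library total, allow levels to be set side by side. The ratio of *Igf1r* to *Igf2r* FPKM was 1.01, 1.11 and 1.07 in the controls and 0.803, 0.791 and 0.745 in the mutants. On this scale the signalling receptor thus stood above the clearing receptor in each control and below it in each mutant. That crossing rests on the gene lengths used, 16791 bases for *Igf1r* and 9308 for *Igf2r*. In CPM, *Igf1r* lay above *Igf2r* in the mutants too, at 134 to 138 CPM against 93.8 to 101 CPM. The difference of the mean ratios was −0.28 (exact two-sided permutation p = 0.1, the smallest that 3 libraries against 3 can give). The ratio of *Igf1* to *Igf2* FPKM was 1.54, 1.64 and 2.0 in the controls and 1.06, 1.71 and 1.46 in the mutants, and the groups overlapped (exact two-sided permutation p = 0.3). *Igf1* stood above *Igf2* in all 6 libraries on this scale. If reads in the exons shared with *Gm49394* and *Igf2os* were not counted, the length behind *Igf2* is 2029 bases rather than 5723 and its level 7.95 ± 1.27 FPKM in the controls and 14.1 ± 1.66 FPKM in the mutants (SD, n = 3 each). That lies above the 4.84 ± 0.695 and 6.95 ± 1.09 FPKM of *Igf1*, so the order of the ligands rests on how shared reads were handled. With *Gm49394* at 0 counts, reads shared with it were either dropped or counted for *Igf2* alone. Only in the second case would *Igf1* stand above *Igf2*.

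Among the 6 binding proteins, fitted log2 fold changes ran from −0.11 to 0.26. *Igfbp2* (ENSMUSG00000039323, chromosome 1 from 72824503 to 72852474, plus strand) binds IGF-II with some preference. It was the highest of the binding proteins in FPKM, but in CPM it lay below *Igfbp5*. Its values were 157, 157 and 173 CPM in the controls and 206, 191 and 185 CPM in the mutants. Every mutant lay above every control, with means of 162 ± 9.21 and 194 ± 10.8 CPM (SD, n = 3 each). This 1.19-fold difference, 0.26 on the log2 scale with a standard error of 0.06, missed both thresholds of the call (edgeR, adjusted p = 0.0102).

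*Igfbp5* (ENSMUSG00000026185, chromosome 1 from 72857932 to 72874884, minus strand) lies tail to tail with *Igfbp2*, 5457 bases away, and went the other way. Its level was 385, 386 and 372 CPM in the controls and 366, 356 and 362 CPM in the mutants, and each mutant lay below each control. The log2 difference of −0.08, with a standard error of 0.04, did not pass the test (edgeR, adjusted p = 0.226). The ratio of *Igfbp2* to *Igfbp5* FPKM was 1.32, 1.33 and 1.51 in the controls and 1.83, 1.74 and 1.66 in the mutants, with no overlap (exact two-sided permutation p = 0.1, again the smallest possible).

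*Igfbp3* (ENSMUSG00000020427, chromosome 11 from 7206086 to 7213923, minus strand), the main carrier of IGFs in serum, was counted at 22.9, 23.5 and 20.9 CPM in the controls and at 26.4, 25.4 and 26.0 CPM in the mutants. The groups did not overlap, but the log2 difference of 0.21 did not pass the test (SE 0.08, adjusted p = 0.0888, edgeR).

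The remaining 3 binding proteins had overlapping groups. *Igfbp4* (ENSMUSG00000017493, chromosome 11 from 99041244 to 99054392, plus strand), whose protein is cut by pappalysins to release its ligand, was counted at 125, 130 and 116 CPM in the controls and at 127, 114 and 103 CPM in the mutants (log2 fold change −0.11, adjusted p = 0.332, edgeR). *Igfbp7* (ENSMUSG00000036256, chromosome 5 from 77349240 to 77408041, minus strand), a low-affinity relative abundant in vessels, was counted at 44.6, 44.1 and 39.1 CPM against 51.1, 47.3 and 40.0 CPM (log2 fold change 0.12, adjusted p = 0.431, edgeR). It shares 85 of its 1209 exon bases with *Polr2b* on the other strand, which had a log2 fold change of −0.18. *Igfbp6* (ENSMUSG00000023046, chromosome 15 from 102144362 to 102149511, plus strand), which prefers IGF-II, was the lowest at 4.17, 3.71 and 3.72 CPM against 4.56, 3.84 and 5.04 CPM (log2 fold change 0.21, SE 0.18, adjusted p = 0.428, edgeR).

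On the FPKM scale, binding proteins took the top 4 places of the axis in both groups. *Igfbp2* led with 87.1 ± 4.95 FPKM in the controls and 104 ± 6.03 FPKM in the mutants (SD, n = 3 each). *Igfbp5* followed at 62.9 and 59.9 FPKM, *Igfbp7* at 34.9 and 38.0 FPKM and *Igfbp4* at 27.8 and 25.9 FPKM, and none of these neighbours overlapped over the libraries of a group. In the controls, *Igf1r* (9.95 FPKM) and *Igf2r* (9.37 FPKM) came next with overlapping ranges. *Igfbp3* at 7.10 FPKM and *Igf1* at 4.84 FPKM were each apart from their neighbours. *Igfbp6* at 3.45 FPKM and *Igf2* at 2.82 FPKM overlapped at the foot of the order. In the mutants, *Igf2r* (10.3 FPKM) stood apart above *Igfbp3* (8.24 FPKM). *Igfbp3* overlapped with *Igf1r* (8.05 FPKM), which overlapped with *Igf1* (6.95 FPKM). *Igf2* (4.996 FPKM) then passed *Igfbp6* (4.01 FPKM) to take the ninth place. These places of *Igf2* hold for its full exon length. Over its unshared bases, its mean of 7.95 FPKM in the controls would lie above that of *Igfbp3*, and its mean of 14.1 FPKM in the mutants above that of *Igf2r*. The 6 binding proteins together summed to 223 ± 0.977 FPKM in the controls and 240 ± 13.6 FPKM in the mutants, and the ligands to 7.66 ± 1.04 and 11.9 ± 0.850 FPKM (SD, n = 3 each). Binding protein transcripts per ligand transcript came to 29.5 ± 3.81 in the controls and 20.2 ± 1.77 in the mutants with the deposited values, and to 17.7 ± 2.24 and 11.4 ± 0.397 with *Igf2* over its 2029 unshared bases (SD, n = 3 each).

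**Figure D3:**
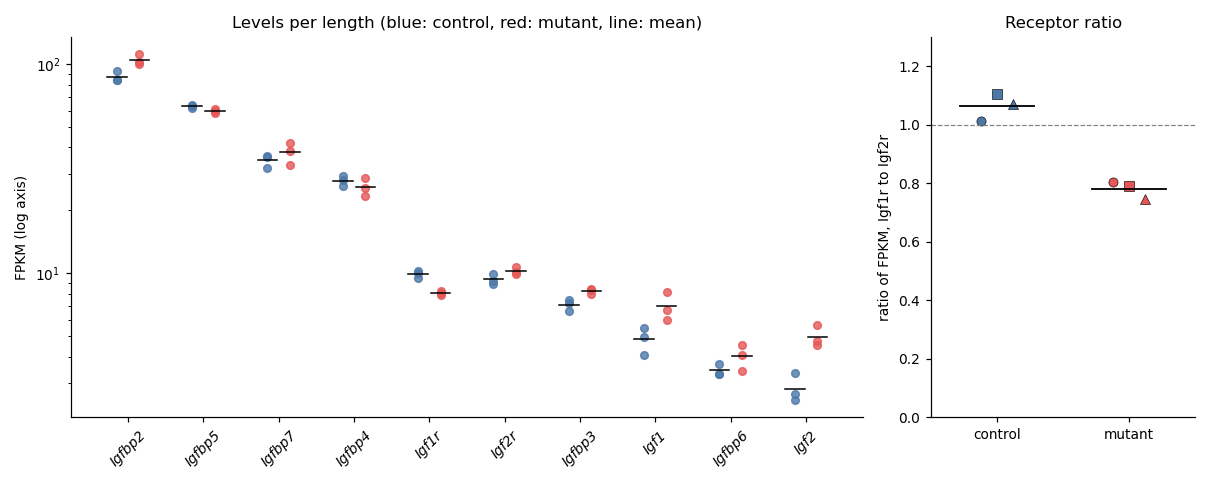
Left, FPKM of each member (log axis) in the 3 control and 3 mutant libraries, ordered by the control mean. Right, the ratio of *Igf1r* to *Igf2r* FPKM from 0, which lies at 1.01 to 1.11 in the controls and at 0.745 to 0.803 in the mutants; the dashed line marks equal levels.

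Marker genes of cell types that the dissected tissue could hold were read beside several members. Over all tested genes, edgeR called 3.03% higher and 3.63% lower, and DESeq2 called 3.97% and 4.22%. Of 10 meningeal markers, 3 were called higher (4 by DESeq2) and 0 lower, with a median log2 fold change of 0.46, and their summed level was 758 to 804 CPM in the controls and 934 to 1158 CPM in the mutants. *Igf2* came to 1.90, 2.45 and 1.89% of that sum in the controls and to 2.80, 2.86 and 2.81% in the mutants, without overlap. That sum was weighted by abundant markers that did not pass the test, such as *Col3a1* at 337 CPM in the controls and 335 CPM in the mutants. The 3 called markers differed by about as much as *Igf2* at 1.77-fold, with *Slc22a6* at 1.88-fold, *Col1a1* at 1.81-fold and *Col1a2* at 1.70-fold. These were picked by a call that itself needs a log2 fold change beyond 0.5. By fitted value 7 of the 10 markers were higher and 3 lower, with 0 of the 3 at an adjusted p under 0.05 in edgeR. Of 8 mural cell markers, 1 was called higher and the sum was 435 to 463 CPM against 517 to 532 CPM. Of 10 endothelial markers, edgeR and DESeq2 each called 0, with 1 higher and 1 lower at an unadjusted p under 0.05 in edgeR, and the sum was 457 to 511 CPM against 456 to 472 CPM. *Igf2* came to 3.13 to 3.76% of the endothelial sum in the controls and to 5.55 to 7.12% in the mutants.

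Choroid plexus markers set single libraries apart. Their sum was 137 to 205 CPM in the controls but 228, 40.2 and 789 CPM in mutants 1 to 3. *Ttr* alone made up most of it in mutants 1 and 3, at 181 and 711 CPM, and stood at 6.06 CPM in mutant 2. Of the 10 markers, 0 were called higher and 1 lower. The called marker was *Otx2* (log2 fold change −1.16, adjusted p = 1.81e-05, edgeR). It stood at 55.5, 49.0 and 54.2 CPM in the controls and at 24.7, 22.0 and 24.0 CPM in mutants 1 to 3. *Otx2* thus did not follow *Ttr* over the libraries, and it made up 22.0 of the 40.2 CPM of the sum in mutant 2. *Igf2* stood at 27.5 and 26.2 CPM in mutants 2 and 3, where this sum was lowest and highest. Without mutant 3, the log2 fold change of *Igf2* was 0.88 (adjusted p = 0.00374, edgeR). The part of choroid plexus RNA in the level of *Igf2* was not tested.

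*Igf1* was set beside 2 lists. The meningeal, astroglial and oligodendrocyte lineage sums were higher in the mutants as well. Of 7 Purkinje cell markers, 5 were called higher, and the sum was 1457 to 1560 CPM in the controls and 2026 to 2496 CPM in the mutants. *Igf1* came to 2.81 to 3.50% of it in the controls and to 2.93 to 3.27% in the mutants, with overlapping groups. Of 10 microglial markers, 1 was called higher, and the sum was 130 to 133 CPM against 165 to 178 CPM. *Igf1* came to 31.3 to 41.3% of it in the controls and to 36.3 to 48.4% in the mutants, again overlapping. Beside *Igfbp2*, 3 of 10 astroglial markers were called higher, and the sum was 5019 to 5132 CPM against 6561 to 6956 CPM. *Igfbp2* came to 3.06 to 3.45% of the astroglial sum in the controls and to 2.68 to 3.14% in the mutants. The fall of *Igf1r* stood beside that of the 8 GNP markers, all of which were called lower with a median log2 fold change of −1.24. The part of these cell types in the differences of *Igf2*, *Igf1*, *Igfbp2* and *Igf1r* was not tested. Of 7 oligodendrocyte lineage markers, 6 were called higher, and the sum was 528 to 573 CPM in the controls and 742 to 792 CPM in the mutants. The remaining marker, *Pdgfra*, went the other way, with means of 194 CPM in the controls and 142 CPM in the mutants. Its log2 fold change of −0.45 (adjusted p = 0.000307, edgeR) stayed short of the fold threshold. Of 6 granule neuron markers, 4 were called lower, and the sum was 2778 to 2899 CPM against 1935 to 2082 CPM. No marker of these lists was at 0 in all libraries.

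**Figure D4:**
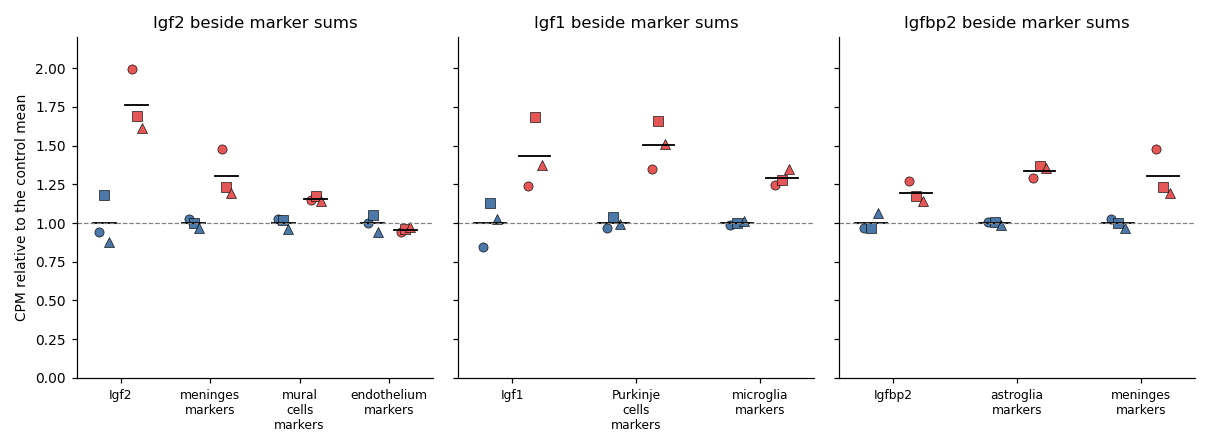
CPM of *Igf2*, *Igf1* and *Igfbp2*, and the summed CPM of marker lists, each divided by its control mean (y axis, from 0), for 3 control (blue) and 3 mutant (red) libraries with group means as black lines. The mean of *Igf2* lies above those of the meningeal, mural and endothelial sums. The 3 called meningeal markers, not drawn singly, moved about as much as *Igf2*, while 3 of the 10 were lower by fitted value. *Igf1* lies beside the Purkinje cell list, and *Igfbp2* lies beside or below the astroglial list.

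Other genes of the axis were read from 5 lists of 46 genes, of which 43 were tested. Of these, 5 were called higher and 3 lower (11.6% and 6.98%), beside 3.03% and 3.63% of all tested genes. Their median log2 fold change was −0.08. *Ins1* was at 0 counts in all libraries, and *Ins2* and *Igfbp1* were too low to be tested. Of the 4 tested ligands, receptors and carriers outside the members, *Igfbpl1*, a secreted protein with an IGF-binding-like domain, was called. It fell from 278 ± 13.8 to 132 ± 4.66 CPM (SD, n = 3 each), a log2 difference of −1.07 (SE 0.05, adjusted p = 2.27e-06, edgeR). Single values were 277, 265 and 292 CPM in the controls and 138, 129 and 131 CPM in the mutants.

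Of 5 extracellular regulators, 1 was called higher and 1 lower. *Stc1*, a stanniocalcin of the family that inhibits pappalysin proteases, fell from 9.37, 10.2 and 10.9 CPM in the controls to 3.75, 4.24 and 4.17 CPM in the mutants (log2 fold change −1.32, SE 0.14, adjusted p = 0.000169, edgeR). *Htra1*, a secreted serine protease that can cut IGF-binding proteins, rose from 20.05, 21.4 and 17.1 CPM to 28.8, 28.5 and 29.3 CPM (0.57, SE 0.10, adjusted p = 0.00207, edgeR). Neither gene's groups overlapped. *Pappa2*, a pappalysin that cuts IGF-binding proteins, was not called, at 4.95 ± 0.063 CPM in the controls and 7.73 ± 0.940 CPM in the mutants (SD, n = 3 each; 0.64, SE 0.15, adjusted p = 0.0113, edgeR), although its groups were apart.

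Of 8 adaptors, *Grb14*, which binds activated insulin and IGF receptors and dampens their signal, was called. It rose from 22.7, 20.9 and 19.97 CPM to 30.0, 30.7 and 34.1 CPM (0.58, SE 0.09, adjusted p = 0.00134, edgeR). Of the 23 genes of the PI3K, Akt and mTOR arm, edgeR and DESeq2 each called 2 higher and 0 lower. The median log2 fold change was −0.05, and 4 genes were higher and 8 lower at an unadjusted p under 0.05 in edgeR, beside the 18.2% and 19% of all tested genes. The genes edgeR called were both FOXO transcription factors, which Akt is known to keep out of the nucleus. *Foxo1* rose from 38.3, 36.1 and 32.1 CPM to 46.9, 49.5 and 54.5 CPM (0.50, adjusted p = 0.00287, edgeR) and *Foxo6* from 14.5, 17.2 and 16.8 CPM to 22.7, 22.5 and 27.2 CPM (0.58, adjusted p = 0.00383, edgeR). *Foxo1* passed the fold threshold narrowly. Over all 5 pathway lists, the number of genes called higher fell from 5 to 2 without control 2, without control 3, without mutant 1 or without mutant 3.

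The IGF2 mRNA-binding proteins, named for their binding to *Igf2* transcripts, differed among themselves. *Igf2bp1* fell from 19.5, 17.4 and 19.01 CPM to 13.4, 9.45 and 9.65 CPM (log2 fold change −0.78, SE 0.14, adjusted p = 0.00311, edgeR). *Igf2bp2* rose from 21.1, 20.4 and 21.8 CPM to 33.0, 29.5 and 27.7 CPM (0.51, SE 0.09, adjusted p = 0.00265, edgeR). *Igf2bp3* did not pass the test, at −0.33 and an adjusted p of 0.061. For both called genes the groups were apart.

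In many mouse tissues *Igf2* is expressed mainly from the paternal and *Igf2r* mainly from the maternal copy, so 12 further imprinted genes were read. Whether either gene was imprinted in the cells of these libraries was not tested. Of the 12 genes, 2 were called higher and 1 lower, beside 3.03% and 3.63% of all tested genes. Their median log2 fold change was 0.14, and that of all tested genes was −0.01. *H19*, the maternally expressed RNA gene of the same cluster, lies 72622 bases from *Igf2*. Its level was 76.0, 101 and 100.5 CPM in the controls and 184, 147 and 124 CPM in the mutants, without overlap (0.71, SE 0.14, adjusted p = 0.00537, edgeR). As for *Igf2*, mutant 1 was the highest library and mutant 3 the lowest mutant. *Cdkn1c*, the maternally expressed gene for a cell cycle inhibitor, rose from 81.3, 89.6 and 91.6 CPM to 134, 122 and 121 CPM (0.52, SE 0.06, adjusted p = 0.00038, edgeR). *Plagl1*, an imprinted zinc finger transcription factor gene, fell from 102, 121 and 107 CPM to 43.6, 42.4 and 41.5 CPM (−1.37, SE 0.07, adjusted p = 3.01e-06, edgeR). The number called higher was 0 without control 1 or without mutant 1, and 1 without control 2 or without control 3. Counts per gene do not separate the parental copies.

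**Figure D5:**
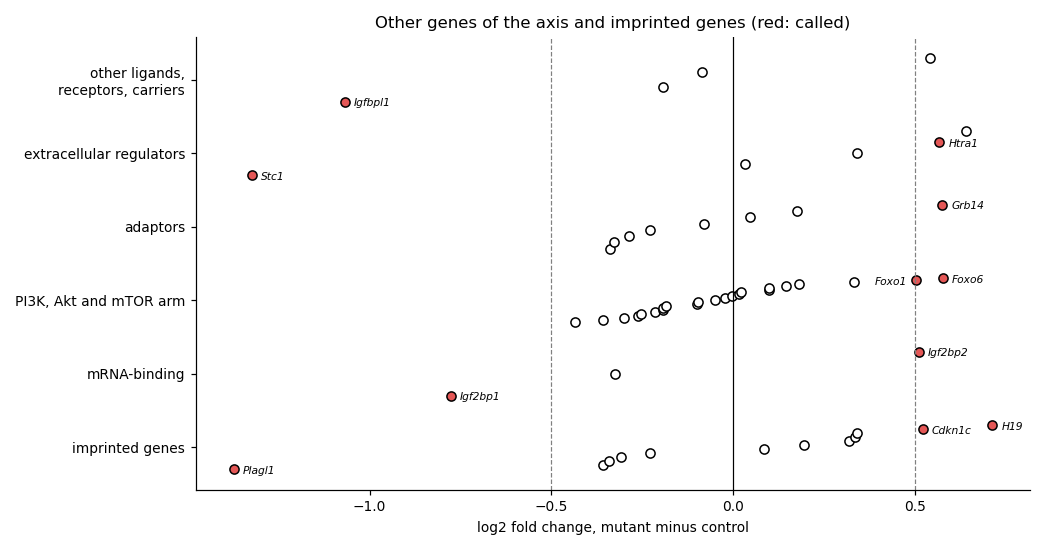
Fitted log2 fold change, mutant minus control (x axis), of the tested genes of the 5 pathway lists and of 12 imprinted genes; genes of a list are spread vertically in order of their value. Red points are called genes, from *Plagl1* at −1.37 to *H19* at 0.71, and dashed lines mark the fold threshold of 0.5.

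The genes with the profile most like that of *Igf2* over the 6 libraries were *Slc6a20a*, *Rnase4* and *Tfcp2l1*, chosen among the 12669 genes that averaged 5 CPM or more by the root mean square difference of centred log2(CPM + 0.5) values. The difference was 0.0123 for *Slc6a20a*, a gene for an amino acid transporter, which was counted at 17.4, 21.9 and 16.4 CPM in the controls and at 37.0, 31.0 and 29.3 CPM in the mutants. It was 0.0468 for *Rnase4*, which encodes a secreted ribonuclease and had a log2 fold change of 0.78, and 0.0650 for the transcription factor gene *Tfcp2l1*, also at 0.78. All 6 values of *Slc6a20a* kept the order of the libraries seen in *Igf2*. Having been picked for this likeness, these genes are a description and carry no test.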

How the data were processed

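The authors extracted RNA with TRIzol, selected mRNA with poly-T beads, aligned reads to mm10 with HISAT2 2.0.5 and deposited raw counts per gene from featureCounts 1.5.0-p3. The strand setting and the handling of shared reads are not given in the sources used here. The authors also deposited FPKM values, computed from these counts and gene length. Member coordinates were those of GRCm38.

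Counts were analysed with edgeR 4.0.16 in R 4.3.3 (filterByExpr, TMM, glmQLFit, glmQLFTest), 3 mutants against 3 controls, with Benjamini-Hochberg adjustment over 17505 tested genes, which held 99.8% of counts. A call needed an adjusted p under 0.01 and an absolute log2 fold change above 0.5. CPM values are counts scaled to the TMM-normalized library total. Single ratios were compared with exact permutation tests. Limits from counts cover counting error only. Same-group libraries differed beyond sampling noise (chi-square per gene 3.64 to 10.1), so none was a copy. Whether libraries of a group were separate animals is not stated in the labels, and p-values measure the spread between them.

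The members and all lists were chosen with earlier results of these data known. Named were all members, *Tox3* and *Atoh1*, every called gene of 5 pathway lists and of 12 imprinted genes, the 3 genes most like the called member, and genes overlapping a member. *Igf2bp3*, *Pappa2*, *Ins1*, *Ins2*, *Igfbp1*, *Ttr*, *Otx2*, *Pdgfra* and 4 meningeal markers were named outside this rule, after their values were seen. Promoter and microRNA sequences came from RefSeq tables of GRCm38.p6. Alternatives were DESeq2 1.42.0, other scalings and filters on low counts, limma 3.58.1 on log2(FPKM + 1) or log2(FPKM + 0.1), a Y-chromosome gene covariate, other thresholds, a replicate block and each library left out. The fits were tested on simulated counts. Replicate numbers are not labelled as pairs.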

Additional observations from a re-analysis of the deposited data

Results flagged for a closer look

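A signal appeared in a row that took no part in the tests. *Mir483*, inside *Igf2*, reached 8 counts in mutant 1 and held 16 counts over the 3 mutants, while it was at 0 in every control. Set against the row of its host gene, this was 1.14 per 100 *Igf2* counts in the mutants (16 beside 1406). In the controls it was 0 beside 753, which allows up to 0.398 per 100. The row was singled out because it was at 0 in the controls, so these values are a description and no test, and the limit covers counting error only.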

How the results depend on the processing

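All 10 members kept their direction over 16 alternative fits. *Igf2* ran from 0.65 to 0.96 and lost its call in limma on log2(FPKM + 1) without a filter (adjusted p = 0.0246), while *Igf1* ran from 0.39 to 0.63 and was called by DESeq2, with no filter on low counts, with the Y-chromosome gene covariate and with the replicate block. Members called higher numbered 2 in each of those fits and 3 at an adjusted p under 0.05 with no fold threshold (1 lower). They numbered 0 in limma without a filter and in a test against the fold threshold itself. That test was read at an adjusted p under 0.05, here and over all genes. Under the replicate block, *Igf2* had an adjusted p of 0.000701 and *Igf1* one of 0.000303; same-numbered libraries correlated at 0.26, 0.30 and −0.16 in their deviations, so the numbers were not taken as pairs. Over all genes, calls were 2136 higher and 2252 lower at an adjusted p under 0.05, 285 and 397 in limma on log2(FPKM + 1), 176 and 286 there without a filter, 338 higher on log2(FPKM + 0.1), and 82 and 241 against the fold threshold; leaving out a library gave 349 (without mutant 3) to 569 higher and 492 to 778 lower. Pathway genes called higher numbered 8, 1, 0, 2 and 0 in those fits and 2 to 5 with a library left out, and 10 were called lower at an adjusted p under 0.05. Imprinted genes called higher numbered 4, 1, 1, 1 and 0, and 0 to 2 with a library left out. The choroid plexus median of 0.91 ran from −0.0107 without mutant 3 to 1.21 without mutant 2. The cause of these shifts was not tested. At this depth *Mir483* and other rows of few counts could not be tested.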
